A study of Mus musculus with 4 samples.

Results

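The collagen genes are the 44 genes of the deposited table, of 30905 in all, whose symbol is Col, a number, the letter a and a second number, such as Col1a1. They were chosen by name alone, and each had at least 1 UMI (unique molecular identifier, a tag that marks 1 captured RNA molecule) among the cells analysed. The study transplanted mouse hearts into an ectopic position and profiled single cells of the grafts on day 5. It held 2 allogeneic grafts, from Balb/C donors, and 2 syngeneic grafts, from C57BL/6J donors, and the study's methods name C57BL/6J mice as recipients of both. A graft therefore also holds cells that entered from the recipient, and in the syngeneic grafts donor and recipient cells carry the same strain. The cells of all 4 grafts are in 1 merged table, divided by barcode suffixes 1 to 4, and no source says which suffix belongs to which graft. The suffixes are called libraries 1 to 4. They were treated as 1 pooled sample and not as replicates, allogeneic and syngeneic cells were not compared, and no test was made.

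Collagens are secreted or membrane proteins in which 3 chains wind into a triple helix, and each chain is the product of its own gene. The fibrillar collagens form the tensile fibres of the heart's interstitium and valves, the network-forming type IV collagens make up basement membranes around capillaries and muscle cells, and the beaded-filament type VI collagens link cells to the fibres. Fibril-associated collagens coat the fibres, the short-chain type VIII collagen forms open lattices, and the multiplexins Col15a1 and Col18a1 sit at the outer side of basement membranes. After injury, resident cardiac fibroblasts are known to raise fibrillar collagen, whereas basement membrane chains come largely from endothelial and mural cells. By these roles the 44 genes comprised 11 fibrillar, 6 basement membrane, 6 beaded-filament, 3 short-chain, 9 fibril-associated, 2 multiplexin and 4 transmembrane chains, the anchoring-fibril chain Col7a1, and 2 others.

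Of the 53824 deposited cells, 44626 passed the filters on detected genes and mitochondrial UMIs and 42395 remained after doublets were removed. The libraries held 96020294 to 166079145 UMIs in total, with medians of 4759 to 9784 UMIs per deposited cell, and 308 barcodes occurred with 2 suffixes. The cells formed 27 clusters, defined without the collagen genes and their pathway genes, and 23 of these were named by markers as 11 classes with 38592 cells. For 11 clusters, 1 library supplied over 90% of the cells. All 10 fibroblast and all 10 endothelial markers were highest in the class of that name, against 6 of 9 pericyte and 5 of 9 dendritic markers. Pericyte-like cells also carried endothelial markers at a summed 5582 CPM, against 9889 CPM in endothelial-like cells. They carried fibroblast markers at 1423 CPM and smooth muscle-like cells carried them at 2638 CPM, against 33622 CPM in fibroblast-like cells. Smooth muscle-like cells also carried pericyte markers at 6459 CPM, against 9028 CPM in pericyte-like cells. CPM stands for counts per 1000000, here the UMIs of a gene over the total that the same cells had without mitochondrial genes. Since 1 UMI is 1 molecule read at its 3′ end, these levels need no scaling by gene length.

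Collagen transcripts were concentrated in fibroblast-like cells, where they made up 2.99% of UMIs. The share was 0.439% in endothelial-like, 0.451% in pericyte-like and 0.264% in smooth muscle-like cells. Fibroblast-like cells were 13.6% of the named cells and 24.0% of their UMIs but held 82.3% of their collagen UMIs, and endothelial-like cells held another 13.2%. Lymphocytes and granulocytes are not known as collagen producers, so their collagen UMIs were taken as the level that free RNA in the droplets can give. The T/NK-like, B-like and granulocyte-like cells, 5288 in all at a median depth of 4513.5 UMIs, had a share of 0.0307%, and this background was 0.0670%, 0.0332%, 0.147% and 0.0157% in libraries 1 to 4. Among the background cells themselves, T/NK-like cells of library 2 were at 0.0736%, so this level also varied between classes. Macrophage-like cells were at 0.0230%, which is within the range of that background. Erythroid-like cells were above it, at 0.110% and 0.319% in libraries 1 and 3. Their medians there were 1087 and 1678 UMIs, against 5056 and 3556 in the background cells. They also carried endothelial markers at a summed 2397 CPM. The part of depth and of RNA from other cells in their share was not tested. Dendritic-like cells were at 0.0319%, 0.0714% and 0.0534% in libraries 1, 3 and 4, above the background of the same library in library 4 only. There they had a median of 1213.5 UMIs, against 9877 in the background cells. In that library they carried erythroid markers at 31392 CPM, macrophage markers at 2535 CPM and T/NK markers at 320 CPM, beside dendritic markers at 1396 CPM. The part of depth and of transcripts of other cells in the dendritic-like share was not tested. Cardiomyocyte-like cells, nearly all of library 1, were at 0.0658% there, against the background of that library given above. The 4 unnamed clusters, 3803 cells in all, had shares from 0.0333% to 1.82%.

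The fibroblast-like share was 2.81%, 0.501%, 4.61% and 2.65% in libraries 1 to 4, from 2014, 800, 1921 and 525 cells. It was highest in library 3 and lowest in library 2, and without library 3 the pooled share was 1.99%. When these cells were clustered again, 163 of the 525 cells of library 4 formed a subcluster led by Gzma, Gzmb and Nkg7. These are genes of other cells, and this subcluster had a median of 1293 UMIs and a share of 2.06%. The endothelial-like share had another order, at 0.228%, 0.449%, 0.595% and 0.343%, so that in library 2 alone the 2 classes were almost level. Pericyte-like cells, too few in library 4, had 0.222%, 0.406% and 0.673% in libraries 1 to 3, and smooth muscle-like cells had 0.125%, 0.221% and 0.420%. In all of these classes library 3 was highest, and library 3 also had the highest background. Counting error was far smaller than these distances, with an exact Poisson 95% interval of 0.498% to 0.504% for the lowest fibroblast-like value, that of library 2.

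**Figure D1:**
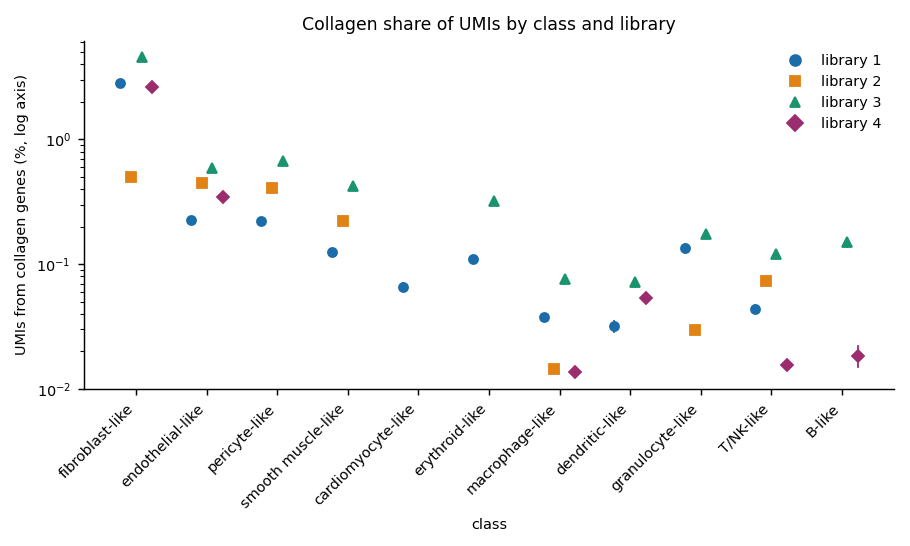
Share of all non-mitochondrial UMIs that came from the 44 collagen genes (percent, log axis) in each cell class, with 1 point per library of at least 50 cells and exact Poisson 95% intervals as vertical lines. Fibroblast-like cells lie between 0.501% and 4.61%, and T/NK-like, B-like and granulocyte-like cells show the level of free RNA.

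The kinds of collagen differed between the classes. In fibroblast-like cells fibrillar chains made up 78.3% of collagen UMIs, beaded-filament chains 7.10%, basement membrane chains 6.60% and the short-chain collagens 3.53%. Library 2 differed, with 48.2% fibrillar and 33.5% basement membrane UMIs, and without library 3 the short-chain part was 1.93%. In endothelial-like cells basement membrane chains made up 82.0% and multiplexins 9.13%. Pericyte-like cells stood between them, with 61.5% basement membrane and 21.3% fibrillar UMIs. Smooth muscle-like cells had the highest multiplexin part of these 4 classes, at 16.3%.

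Of the 44 genes, 25 reached 10 CPM in at least 1 named class, 16 reached 100 CPM and 7 reached 1000 CPM. With the libraries pooled, fibroblast-like cells had the highest level of 22 of the 25. Endothelial-like cells had that of Col4a1 and Col4a2, and smooth muscle-like cells that of Col18a1. In each case the counting interval of the highest class lay apart from that of the next. These placements and intervals were not set against all genes. The order did not hold for every gene within library 2, where Col15a1 was higher in endothelial-like than in fibroblast-like cells. A gene was called higher in a class when its level there plus 10 CPM was at least 2 times the mean of the other classes plus 10 CPM. In fibroblast-like cells 23 of the 25 genes were called, against 8.46% of the 11781 genes of any kind at 10 CPM or more, and the median log2 fold was 2.68, against -0.05 over all of those genes. The 2 not called were Col4a2 and Col18a1. In endothelial-like cells 3 of 25 were called (Col4a1, Col4a2 and Col15a1), against 7.99% of all genes, in pericyte-like cells 4 (Col4a1, Col4a2, Col5a3 and Col18a1), against 7.89%, and in smooth muscle-like cells 2 (Col4a5 and Col18a1), against 8.28%. The endothelial-like and smooth muscle-like counts were near their background shares. These calls cover named classes only.

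**Figure D2:**
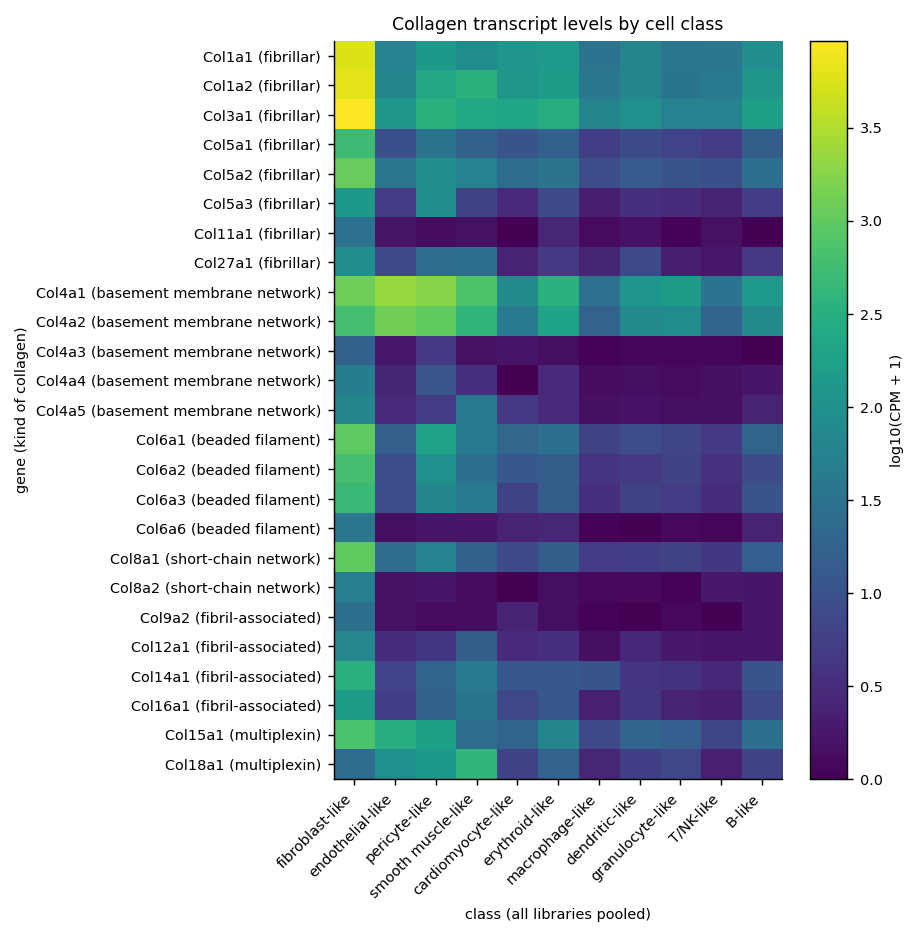
Level of the 25 collagen genes that reached 10 CPM in a named class, as log10(CPM + 1) by colour, with genes in rows grouped by kind and cell classes in columns. With the libraries pooled, the fibroblast-like column is brightest for 22 genes, while Col4a1 and Col4a2 peak in endothelial-like and Col18a1 in smooth muscle-like cells.

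The promoters of 3 of these genes are shown because the genes were placed differently: Col3a1 was highest of all in fibroblast-like cells, Col8a1 was the most abundant short-chain gene and higher in activated fibroblast-like cells, and Col15a1 was called in both fibroblast-like and endothelial-like cells. The RefSeq promoter table (GRCm38.p6) had a window for 35 of the 44 genes. The 250 bases before the annotated start of each are given 5′ to 3′ on the gene's strand, for Col3a1 chr1:45311288-45311537 (plus strand), for Col8a1 chr16:57754738-57754987 (minus strand) and for Col15a1 chr4:47207762-47208011 (plus strand). None of these windows overlapped a GENCODE M21 exon. Capitals mark matches, on either strand, to 3 short motifs known from promoters. The first was the box named for its letters, CCAAT. The second was TATAAA, known for placing the start of transcription. The third was GGGCGG, known for binding Sp1.
Col3a1: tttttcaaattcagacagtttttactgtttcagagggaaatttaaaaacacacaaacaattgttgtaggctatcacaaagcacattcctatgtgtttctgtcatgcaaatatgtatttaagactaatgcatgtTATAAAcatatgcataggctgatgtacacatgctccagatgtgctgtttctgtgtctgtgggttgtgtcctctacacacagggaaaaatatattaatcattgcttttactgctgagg
Col8a1: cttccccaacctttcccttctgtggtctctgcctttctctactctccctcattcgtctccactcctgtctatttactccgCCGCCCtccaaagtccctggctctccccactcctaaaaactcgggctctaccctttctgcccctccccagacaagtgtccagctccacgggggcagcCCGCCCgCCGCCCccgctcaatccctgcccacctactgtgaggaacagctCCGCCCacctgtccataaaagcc
Col15a1: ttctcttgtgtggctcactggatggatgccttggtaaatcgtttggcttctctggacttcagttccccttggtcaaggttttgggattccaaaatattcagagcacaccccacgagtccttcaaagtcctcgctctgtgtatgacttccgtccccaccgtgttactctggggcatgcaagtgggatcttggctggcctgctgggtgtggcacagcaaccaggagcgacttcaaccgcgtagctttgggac
The Col3a1 window held TATAAA once, from base 117 to base 112 before the start. The Col8a1 window held GGGCGG 4 times, each on the strand opposite the gene, so that the printed strand reads CCGCCC. The Col15a1 window held none of the 3 motifs. Over all 32851 windows of this length in the table, 33.8% held CCAAT, 12.4% held TATAAA and 32.7% held GGGCGG, and among the 35 collagen genes with a window these were found in 13, 5 and 21. A match of letters is a description and does not show that a factor binds there.

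Among the fibrillar chains, the main fibre-forming genes Col3a1, Col1a2 and Col1a1 had the 3 highest levels of the family, all in fibroblast-like cells. Col3a1 (ENSMUSG00000026043, chromosome 1, 45311538 to 45349706), the chain of the thin type III fibres, was at 9309 CPM there (interval 9290.2 to 9328), with 9687, 1110.5, 13713 and 8863 CPM in libraries 1 to 4. Col1a2 (chromosome 6, 4504814 to 4541544) was at 6501 CPM, with 5582, 465, 10281 and 7029 CPM in libraries 1 to 4. Col1a1 (chromosome 11, 94936224 to 94953042) was at 5722 CPM, with 5572, 322, 8828 and 5638 CPM in libraries 1 to 4. All 3 were highest in library 3 and lowest in library 2, and libraries 1 and 4 lay between. A Col3a1 UMI was found in 97.6% of fibroblast-like cells (median 15996 UMIs per cell) and in 23.7% of the background cells. After cells of at least 1000 UMIs were thinned to 1000 UMIs, the share was 81.8% in fibroblast-like and 7.25% in T/NK-like cells. This last value does not cover the B-like and granulocyte-like background cells.

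In endothelial-like cells the same fibre-forming transcripts were near the level of the background cells. Col3a1 was at 161, 22.7, 213 and 38.4 CPM in libraries 1 to 4, and the background cells had 189, 15.1, 380.1 and 44.4 CPM. Col1a1 was at 68.3, 5.14, 105 and 20.2 CPM in libraries 1 to 4, with 129.9, 6.39, 202 and 31.4 CPM in the background cells. Col1a1 was below the background cells in all 4 libraries and Col3a1 in libraries 1, 3 and 4, while Col3a1 of library 2 was above them. The endothelial-like clusters of library 2 differed: Col3a1 was at 89.1 CPM in cells with a median of 1075.5 UMIs, and at 8.83 CPM in those with 6930. The values were not read as expression, and the part of free RNA in them was not tested. Mural cells differed from endothelial-like cells: in library 2, where the background was lowest for these genes, Col1a2 was at 83.8 CPM in pericyte-like and 172 CPM in smooth muscle-like cells against 6.39 CPM in the background cells. After subtraction of the background of the same library, Col1a2 was left at 234 CPM in smooth muscle-like, 120.03 CPM in pericyte-like and 0.175 CPM in endothelial-like cells. Pericyte-like cells of library 2 carried fibroblast markers at a summed 853 CPM, against 286 CPM in endothelial-like cells of that library. The part of fibroblast transcripts in the pericyte-like and smooth muscle-like values was not tested.

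The type V chains, which regulate the width of type I fibres, followed at lower levels. Col5a2 was at 1103 CPM in fibroblast-like cells, with 637, 345, 1896 and 979 CPM in libraries 1 to 4. Col5a1 was at 526 CPM, with 479.5, 86.4, 810.1 and 501 CPM in libraries 1 to 4. The third chain, Col5a3, had a different distribution: its 128 CPM in fibroblast-like cells was only 1.496 times the 85.8 CPM of pericyte-like cells, where it was called. In pericyte-like cells it was at 21.4, 75.9 and 146 CPM in libraries 1 to 3, against 2.94, 1.94 and 4.32 CPM in the background cells of these libraries. Of the minor fibrillar chains and the cartilage chain Col2a1, Col27a1 was at 91.95 CPM and Col11a1 at 30.8 CPM in fibroblast-like cells, while Col2a1, Col11a2 and Col24a1 stayed below 10 CPM in every named class.

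The basement membrane chains split into 2 patterns. Col4a1 (chromosome 8, 11198423 to 11312826) and Col4a2, which together form the ubiquitous type IV network, were highest in endothelial-like cells at 2286 CPM (interval 2277 to 2295) and 1314 CPM. Col4a1 was there at 989, 2568, 2989 and 1874 CPM in libraries 1 to 4, above the background cells (49.5, 169, 184 and 11.7 CPM) in every library and lowest in library 1. A Col4a1 UMI was found in 90.9% of endothelial-like cells (median 4958 UMIs per cell) and in 30.9% of the background cells. Pericyte-like cells had Col4a1 at 1762 CPM, fibroblast-like cells at 1230.1 CPM and smooth muscle-like cells at 749.5 CPM. In fibroblast-like cells Col4a1 was at 753, 1194, 1759 and 757 CPM in libraries 1 to 4, so library 2 was here above libraries 1 and 4, unlike for the fibrillar chains. Pericyte-like cells also held endothelial markers, as given above, and the part of these in the pericyte-like level was not tested.

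The other 4 type IV chains, known from specialised basement membranes, were low and not endothelial. Col4a5 was at 64.5 CPM in fibroblast-like and 40.6 CPM in smooth muscle-like cells, and Col4a6, its partner, was highest in smooth muscle-like cells at 9.56 CPM. In smooth muscle-like cells Col4a5 was at 46.0, 22.9 and 57.6 CPM in libraries 1 to 3 and Col4a6 at 17.0, 4.44 and 9.72 CPM in libraries 1 to 3, against 0.490, 0.0809 and 0 CPM of Col4a6 in the background cells. Col4a3 and Col4a4 were at 15.9 and 45.7 CPM in fibroblast-like cells. In libraries 1 and 3 Col4a4 was at 73.2 and 64.3 CPM, and in libraries 2 and 4 it was at 4.25 and 3.60 CPM. Each of these partners also lies beside the other in the genome: in GENCODE M21 Col4a1 and Col4a2 start head to head on chromosome 8 with 22 overlapping bases, Col4a3 and Col4a4 on chromosome 1 with 71 bases between them, and Col4a5 and Col4a6 on chromosome X with 1308 bases between them.

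The beaded-filament chains Col6a1, Col6a2 and Col6a3, which assemble into type VI collagen, were at 967, 621 and 493 CPM in fibroblast-like cells. Pericyte-like cells were next, at 188, 97.4 and 66.3 CPM. Col6a1 was in fibroblast-like cells at 1295, 165, 1387 and 379 CPM in libraries 1 to 4, so that libraries 1 and 3 were close and both above libraries 2 and 4. Col6a6, a chain that can take the place of Col6a3, was split by library more than any other of the 25 genes when library 2 is set aside: it was at 105, 0.434, 18.8 and 1.18 CPM in libraries 1 to 4. Its pooled level of 35.9 CPM fell to 10.2 CPM without library 1. Col6a5 reached 5.82 CPM and Col6a4 0.101 CPM in fibroblast-like cells.

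The short-chain collagen Col8a1 (chromosome 16, 57624258 to 57754737), a matrix component of vessels and heart valves, was at 1003 CPM in fibroblast-like cells, with 395, 289, 2018 and 475 CPM in libraries 1 to 4. Its partner Col8a2 was at 51.3 CPM, with 14.5, 0.0483, 123 and 3.53 CPM in libraries 1 to 4. Both were highest in library 3 by more than 4 times over the next library. Without library 3 the pooled levels were 377 and 7.16 CPM. The third short-chain gene, Col10a1, known from growth-plate cartilage, was at 0.466 CPM.

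Of the fibril-associated chains, Col14a1 was the most abundant, at 333 CPM in fibroblast-like cells and 41.3 CPM in smooth muscle-like cells. It was at 386, 17.6, 529 and 169 CPM in libraries 1 to 4, with libraries 1 and 3 highest. Col16a1 was at 145 CPM, Col12a1 at 67.5 CPM and Col9a2 at 28.1 CPM. Col12a1 was at 16.1, 25.2, 129 and 63.0 CPM in libraries 1 to 4, so that, unlike most chains, it was lowest in library 1. Col9a2 was at 11.2, 0.869, 64.2 and 2.86 CPM in libraries 1 to 4, with library 3 apart from the others. The other 5 fibril-associated genes stayed below 10 CPM in every named class, with Col22a1 highest among them at 3.98 CPM in fibroblast-like cells.

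The 2 multiplexins were placed differently. Col15a1 (chromosome 4, 47208161 to 47313167) was at 702 CPM in fibroblast-like, 306 CPM in endothelial-like and 181 CPM in pericyte-like cells, against 24.5 CPM in smooth muscle-like cells. In endothelial-like cells it was at 169, 139.7, 579.6 and 202 CPM in libraries 1 to 4, each above the background cells (18.6, 9.23, 73.4 and 2.94 CPM) and highest in library 3. In fibroblast-like cells it was at 738, 64.4, 1141 and 385 CPM in libraries 1 to 4, so in library 2 it was below the endothelial-like level. Col18a1 (chromosome 10, 77052178 to 77166548), the source of the fragment endostatin, had nearly the reverse order: 407 CPM in smooth muscle-like (interval 393 to 421), 132 CPM in pericyte-like, 95.8 CPM in endothelial-like and 23.3 CPM in fibroblast-like cells. In smooth muscle-like cells Col18a1 was at 131, 438 and 605 CPM in libraries 1 to 3, against 5.39, 5.67 and 8.16 CPM in the background cells. It was above the background in each library, and lowest in library 1. Under 3 of the alternative clusterings another class had the highest Col18a1.

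The 19 genes below 10 CPM in every named class had their highest level between 0.101 and 9.56 CPM. Over the whole family, 34 of the 44 genes had their highest value in fibroblast-like cells, 5 in endothelial-like and 3 in smooth muscle-like cells. These counts were not set against all genes. For Col2a1, Col6a4, Col10a1, Col11a2, Col17a1, Col19a1, Col20a1, Col23a1 and Col28a1 the counting interval of the highest class met that of the next. Low values can hide a small set of cells, and 2 such sets are given with the endothelial-like and fibroblast-like subclusters. The highest value of Col17a1, an epithelial transmembrane collagen, rested on 1 UMI in B-like cells and was not read.

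The spread over libraries was larger than counting error for the abundant genes. Of the 25 genes, 21 were highest in library 3 in fibroblast-like cells, 3 in library 1 (Col4a4, Col6a6 and Col27a1), 1 in library 4 (Col18a1) and 0 in library 2, where 20 had their lowest level. These counts by library were not set against all genes. The fibroblast-like cells of library 2 were mostly 1 subcluster led by Prg4 and chemokine genes. Within each library, the members called higher in fibroblast-like cells were 25 of 28 in library 1, against 8.89% of all genes tested there, 12 of 19 in library 2, against 7.99%, 23 of 26 in library 3, against 8.65%, and 17 of 20 in library 4, against 10.0%. So the count called was above the background share in every library, and lowest in library 2. Leaving out library 3 changed the pooled level of 12 of the 25 genes by more than 1.5 times, among them Col1a1 (to 3804 CPM), Col1a2 (to 4167 CPM), Col5a2 (to 614 CPM) and Col15a1 (to 430.5 CPM), and likewise Col14a1 (to 212 CPM), Col16a1 (to 72.2 CPM), Col12a1 (to 29.7 CPM), Col4a5 (to 38.4 CPM), Col11a1 (to 14.0 CPM), Col9a2 (to 5.82 CPM), Col8a1 and Col8a2. The count of 12 was not set against all genes. Leaving out library 3 did not change the class in which any of the 25 was highest.

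**Figure D3:**
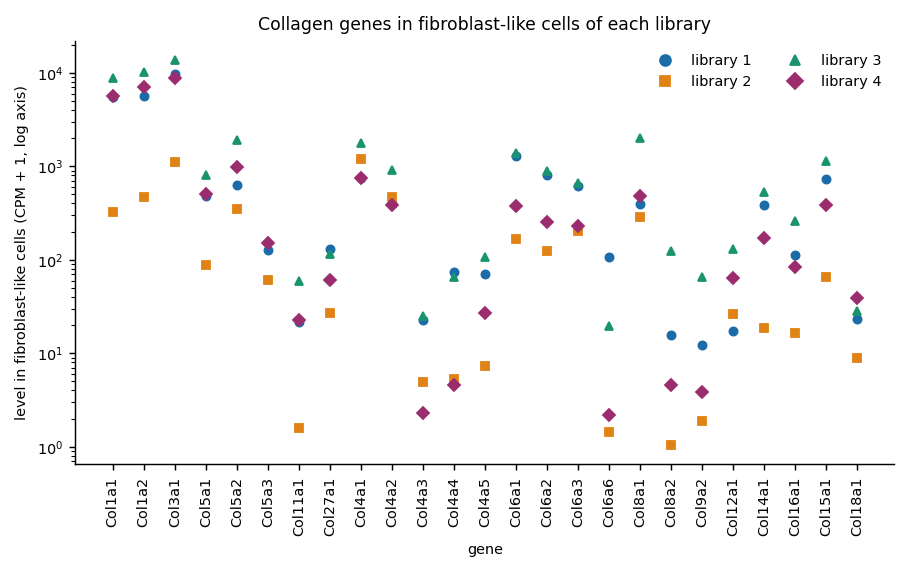
Level of 25 collagen genes in fibroblast-like cells (CPM + 1, log axis), 1 point per library, with genes on the horizontal axis in the order of the plot by class. Library 3 is highest for 21 genes and library 2 lowest for 20, while Col4a1 and Col4a2 of library 2 lie among the other libraries.

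Chains that share a trimer were compared by the ratio of their UMIs in the same cells, wherever both had at least 20 UMIs. Type I collagen usually holds 2 chains of Col1a1 to 1 of Col1a2, whereas the ratio of UMIs was 0.880 in fibroblast-like cells (interval 0.877 to 0.883). By library it was 0.998, 0.693, 0.859 and 0.802 in libraries 1 to 4, none above 1. It was lower in pericyte-like cells, at 0.539 (interval 0.514 to 0.565), and lowest in smooth muscle-like cells, at 0.224 (interval 0.205 to 0.244). The endothelial-like ratio, 0.862, was near that of fibroblast-like cells. In the background classes it was 0.910 in T/NK-like, 1.04 in granulocyte-like and 0.698 in B-like cells (interval 0.548 to 0.886). The interval of the B-like cells met that of the pericyte-like cells, while that of the smooth muscle-like cells lay below it.

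Type IV collagen likewise holds 2 chains of Col4a1 to 1 of Col4a2, and here Col4a1 was the higher in all 32 combinations of class and library measured, with ratios from 1.45 to 2.53 and a median of 1.75. These include the background classes, whose collagen UMIs were taken as free RNA, so the combinations are not separate observations. The lowest, 1.45, was that of macrophage-like cells of library 4. The ratio was 1.74 in endothelial-like (interval 1.73 to 1.75), 1.77 in pericyte-like, 1.87 in smooth muscle-like and 2.02 in fibroblast-like cells. The highest value, 2.53, was that of fibroblast-like cells of library 2, whose interval (2.47 to 2.59) lay apart from those of the other libraries. Col6a1 to Col6a2 ranged from 1.00 to 2.27 over 20 combinations and was 1.56 in fibroblast-like cells. Its lowest value rested on 24 UMIs of each gene in T/NK-like cells of library 1. Col8a1 exceeded Col8a2 by 16.4 times in fibroblast-like cells of library 3 and by 135 times in those of library 4. Such ratios compare UMIs of 2 genes, and how evenly the 2 transcripts were captured was not tested.

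Fibroblast-like cells were clustered again, without the collagen genes. The subcluster with the largest collagen share was not the activated one. Activated cells, named by Postn, Cthrc1 and other genes of matrix-forming fibroblasts, were 703 cells with a share of 4.78%. The subcluster with most cells, 966 unnamed cells led by Cilp, had 4.35%, or 3.55% in library 1 and 4.55% in library 3. Over all libraries it held Col8a1 at 2009 CPM, Col12a1 at 106 CPM and Col11a1 at 47.7 CPM. The activated cells held these at 2551, 169 and 93.3 CPM, so these chains did not mark activated cells alone. An unnamed subcluster of 495 cells, led by Cpz, Gucy1a1, Lgi2 and Vegfd, had 6.35%, or 5.79% in library 1 and 7.18% in library 3, above the activated cells in both (5.12% and 4.75%). The 2 resting subclusters, 896 and 602 cells, had 1.20% and 1.89%, and the first of these was also led by haemoglobin genes. Each passed 3 of the 7 resting markers, the fewest that give a name, against 6 of 8 activated markers in the activated cells. The resting marker Clec3b was among the 10 leading genes of the second resting subcluster only. The Prg4-led stromal subcluster, 763 cells of which 762 came from library 2, had 0.535%.

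The Cpz-led subcluster stood apart by single chains, for which levels are given in libraries 1 and 3 in that order. Col3a1 was there at 26469 and 31464 CPM, against 13147 and 12779 CPM in the activated subcluster. Col14a1 was at 999 and 1047 CPM, against 364 and 545 CPM, and Col6a5 was at 51.8 and 19.6 CPM, against 0.909 and 0 CPM. Other chains were lower there than in activated cells, namely Col8a1 at 112 and 253 CPM against 1308 and 2666 CPM, Col15a1 at 308 and 279 CPM against 1115 and 1292 CPM and Col4a1 at 449 and 524 CPM against 1429 and 2134 CPM. The fibrillar chains did not all differ in 1 direction: Col5a2 was at 1145 and 1687 CPM against 1582 and 2379.7 CPM and Col11a1 at 9.72 and 39.2 CPM against 208 and 82.7 CPM, both lower in the Cpz-led cells of each library. Postn was at 1451 and 1988 CPM in them, between the resting and the activated cells in both libraries.

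Another unnamed subcluster held 185 cells led by Cytl1, Wif1, Chad and Comp, genes known from cartilage and heart valves. It had a collagen share of only 1.22% but the highest levels of several rare chains. In libraries 1 and 3, Col11a2 was there at 41.8 and 36.0 CPM, Col9a1 at 12.5 and 23.8 CPM and Col4a6 at 44.6 and 30.2 CPM. In activated cells Col11a2 was at 1.82 and 4.13 CPM and Col9a1 at 5.46 and 0.421 CPM. These genes, which are below 10 CPM in fibroblast-like cells as a whole, were singled out after their values were seen.

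Activated and resting cells could be compared within 2 libraries, with 61 against 1333 cells in library 1 and 642 against 165 cells in library 3. The fold is again the ratio of levels with 10 CPM added to both. In library 1, 21 of the 30 collagen genes at 10 CPM or more were at least 2-fold higher in activated cells, against 4.06% of all genes tested, and 2 at least 2-fold lower, against 4.95%. Some of the 21 rested on few molecules or cells. Col2a1 had 14 UMIs in activated cells, and Col10a1 had 31, which lay in 0.142% of the 703 activated cells. In library 3, 11 of 28 were higher, against 2.77%, and 4 were lower, against 3.73%. The subclusters were defined from other genes of the same cells, so this is a description. The median log2 fold of the collagen genes was 1.40 in library 1 (all genes 0.07) and 0.60 in library 3 (all genes -0.06).

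Higher in both libraries were 11 genes: the fibrillar Col1a1, Col1a2, Col3a1, Col5a2 and Col11a1, the short-chain Col8a1 and Col8a2, and the fibril-associated Col9a2, Col12a1, Col16a1 and Col22a1. Col1a1 was at 12388 CPM in activated and 1868 CPM in resting cells of library 1 (6.60-fold), and at 9109 and 2768 CPM in library 3 (3.28-fold). Col11a1 went from 1.38 CPM in resting to 208 CPM in activated cells in library 1 and from 5.88 to 82.7 CPM in library 3. Col12a1 was at 55.5 against 3.53 CPM in library 1 and 179 against 7.65 CPM in library 3. Lower in both were Col6a6, at 10.9 against 119 CPM and 3.28 against 107 CPM, and Col4a4, at 37.3 against 93.0 CPM and 57.4 against 139 CPM. In fibroblast-like cells as a whole both were also lower in libraries 2 and 4 than in libraries 1 and 3.

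For some chains the 2 libraries differed. Col5a3 was 2.39-fold in library 1 (264 against 104 CPM) and 0.435-fold in library 3 (138 against 330.1 CPM). Col6a1 was 2.31-fold in library 1 and 1.13-fold in library 3, and Col15a1 1.42-fold and 0.923-fold. The resting cells of library 3 were few, and all but 40 of its 165 were of the second resting subcluster, whereas library 1 drew mostly on the first. The part of this in the difference was not tested.

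**Figure D4:**
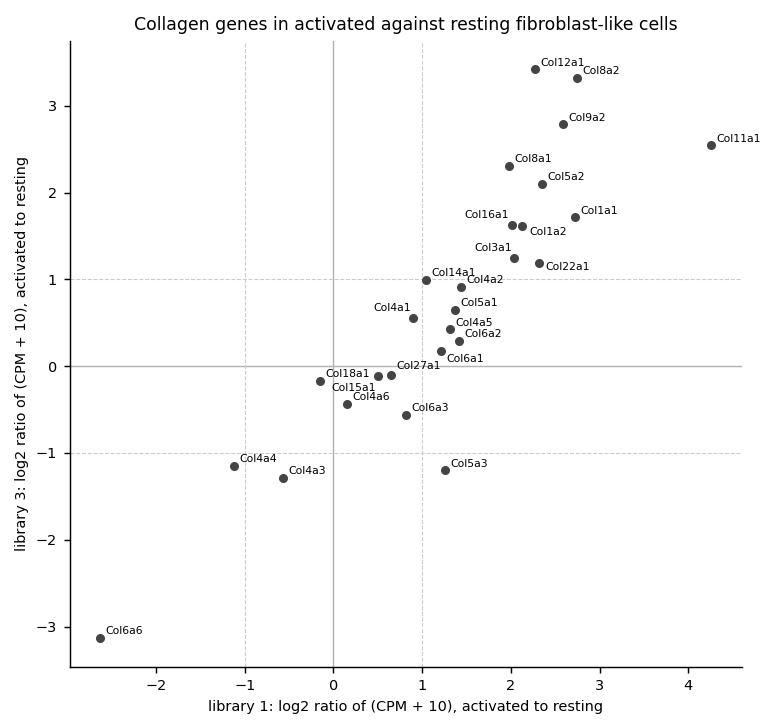
Ratio of levels in activated to resting fibroblast-like cells, as log2 of (CPM + 10) over (CPM + 10), in library 1 (horizontal axis) and library 3 (vertical axis), 1 point for each of the 27 collagen genes measured in both, with dashed lines at 2-fold. Genes in the upper right corner, such as Col11a1, Col12a1 and Col8a2, were higher in activated cells of both libraries, and Col6a6 in the lower left was lower in both.

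Library 4 had its own unnamed subcluster, of 311 cells (309 from library 4) led by Saa3, Hp and interferon-response genes, with a collagen share of 2.83%. Its Col1a1 was at 5999.97 CPM and its Col3a1 at 9398 CPM in library 4, against 9109 and 12779 CPM in the activated cells of library 3. The distance was wider for Col6a1 (397 against 1436 CPM), Col15a1 (397 against 1292 CPM) and Col8a1 (497 against 2666 CPM). The Prg4-led cells of library 2 had Col4a1 as their highest collagen, at 1217 CPM, above Col3a1 at 1118 CPM and Col1a1 at 317 CPM. For both subclusters a difference from other cells is also a difference between libraries, and the 2 cannot be told apart.

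Endothelial-like cells were also clustered again, and collagen levels differed between the kinds of vessel lining. Col18a1 was high in arterial cells (941 cells), at 231, 541 and 402 CPM in libraries 1 to 3, and low in the 2 capillary subclusters of library 2, at 46.3 and 39.8 CPM. Col8a1 was in arterial cells at 178, 88.2 and 151 CPM in libraries 1 to 3, against 2.57 and 3.33 CPM in the capillary cells. The background cells had Col8a1 at 6.86, 2.10, 38.4 and 1.99 CPM, so the arterial level was above it in each library. Within library 2, where both kinds were present, arterial cells were thus higher in both genes.

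Lymphatic cells (222 cells, named by Prox1, Lyve1 and other markers) line vessels whose capillaries are known for a thin, incomplete basement membrane. They had little Col15a1, at 5.37, 7.198 and 45.3 CPM in libraries 1 to 3, against 41.9, 4.41 and 241 CPM in the arterial cells of the same libraries. So Col15a1 was lower in lymphatic than in arterial cells of libraries 1 and 3, while the arterial level of library 2 and the lymphatic levels of all 3 libraries were below the background cells (18.6, 9.23, 73.4 and 2.94 CPM in libraries 1 to 4). Lymphatic Col4a1 was at 512, 1341 and 1122 CPM in libraries 1 to 3 and Col18a1 at 310.3, 93.6 and 445 CPM in libraries 1 to 3. Lymphatic Col18a1 was thus above the arterial level in libraries 1 and 3 and below it in library 2. The transmembrane collagen Col23a1 was highest in lymphatic cells, at 188, 85.2 and 132 CPM in libraries 1 to 3, against 5.92 CPM in endothelial-like cells as a whole and 0.682 CPM in the background cells. Col23a1 was chosen for this account after its values were seen.

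The endocardial or venous subcluster (259 cells, named by Npr3, Vwf and related genes) also held Col23a1, at 105, 12.02 and 89.2 CPM in libraries 1 to 3. It further held Col13a1, another transmembrane collagen, at 9.52, 33.2 and 16.4 CPM in libraries 1 to 3, and the fibrillar Col5a2 at 212, 60.8 and 504 CPM in libraries 1 to 3, where the background cells had 19.1, 4.78 and 59.0 CPM. In capillary cells of library 2, Col13a1 was at 2.45 and 1.37 CPM and Col23a1 at 0.311 and 0 CPM. Col4a1 was lower in the endocardial or venous than in the arterial cells of libraries 1 and 3 and higher in library 2, at 390.5, 1277 and 815 CPM in libraries 1 to 3 against 703, 1031 and 2587 CPM in libraries 1 to 3.

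Among the remaining endothelial-like cells, an unnamed subcluster of 1327 cells, 1171 of them from library 3 and led by Aplnr and Il6 beside Col15a1 itself, had the highest Col15a1, 716 CPM, and Col4a1 at 3171 CPM. A related unnamed subcluster of 2620 cells, led by Aplnr and drawn from libraries 1 and 3, had Col15a1 at 227 and 659 CPM in libraries 1 and 3. The unnamed subcluster led by Ifit1 and Isg15, 2635 cells mostly of library 1, had Col15a1 at 166 CPM and Col4a1 at 972 CPM in that library, below the Aplnr-led cells of the same library (227 and 1329 CPM). The interferon-responding subcluster (615 cells, 612 of library 4) had Col4a1 at 1934 CPM and Col15a1 at 212 CPM. The cycling cells (180, of which 175 came from library 3) were at 3138 and 632 CPM.

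**Figure D5:**
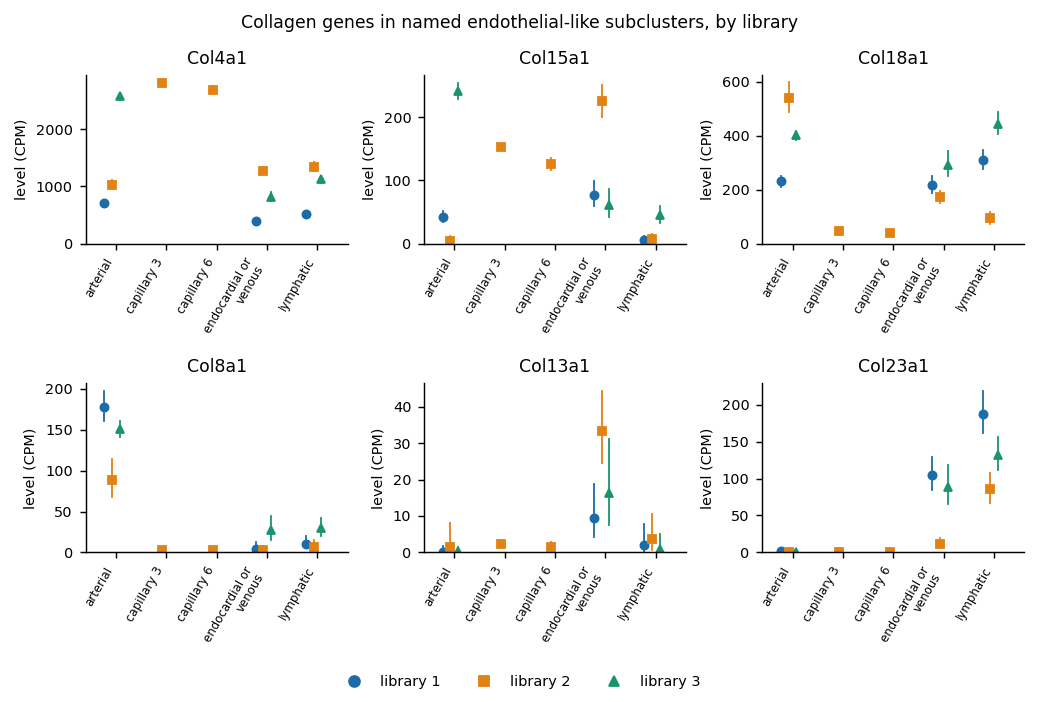
Level (CPM, linear axes from 0) of 6 collagen genes in the named endothelial-like subclusters that hold arterial, capillary, endocardial or venous and lymphatic cells, 1 point per library of at least 50 cells, with exact Poisson 95% intervals. Col18a1 and Col8a1 are high in arterial cells, and Col18a1 also in the lymphatic cells of libraries 1 and 3. Col23a1 is high in lymphatic and endocardial or venous cells, and Col15a1 is lower in lymphatic than in arterial cells of libraries 1 and 3.

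Collagen chains are hydroxylated, folded, trimmed and cross-linked by a set of helper proteins, and 30 such genes were examined. Of 27 at 10 CPM or more, 23 were called higher in fibroblast-like cells, against the 8.46% of all genes, with a median log2 fold of 2.29. The cross-linking enzymes Loxl1 (689 CPM, 25.1-fold), Lox (472 CPM, 17.3-fold), Loxl2 and Loxl3 were all among them. So were the propeptide-trimming genes Pcolce (767 CPM, 19.2-fold), Pcolce2, Adamts2 and Bmp1, and the chaperone Serpinh1 (1478 CPM, 6.42-fold) with Sparc (9078 CPM) and Fkbp10. All 23 calls held with any 1 library left out. Within single libraries 21 of 26, 16 of 26, 23 of 27 and 22 of 26 were called in libraries 1 to 4. The shares of all genes were 8.89%, 7.99%, 8.65% and 10.0%. In library 2 P4ha1 was at 90.3 CPM in fibroblast-like cells, below the 112.9 CPM of the background cells. Sparc was in fibroblast-like cells at 7449, 1865, 14035 and 9531 CPM in libraries 1 to 4, and in library 2 it was higher in endothelial-like (3629 CPM) and pericyte-like cells (3528 CPM). Without library 3 the pooled level fell by more than 1.5 times for 4 assembly genes, a count not set against all genes. They were Sparc (to 6017 CPM), Lox (to 305 CPM), Loxl3 (to 81.2 CPM) and P4ha3 (to 17.7 CPM). The prolyl and lysyl hydroxylase complexes were represented by P4ha1, P4ha2, P4ha3, P4hb, P3h1, P3h3, P3h4, Crtap, Ppib, Plod2 and Plod3, and glycosylation by Colgalt1.

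In endothelial-like cells 3 of 27 assembly genes were called, a count near the 7.99% of all genes: Plod1 (170.4 CPM), Serpinh1 (682 CPM) and Sparc (3439.9 CPM). The calls of Serpinh1 and Sparc were lost without library 1 and that of Sparc also without library 2, with Sparc then at 3940.4 and 3345 CPM and Serpinh1 at 767 CPM. Plod1, a lysyl hydroxylase, was at 87.2 CPM in fibroblast-like cells and was the only one of the lysyl hydroxylases called in endothelial-like cells. Of the 10 collagen receptors, 9 were at 10 CPM or more. In fibroblast-like cells 3 were called, against 8.46% of all genes: the fibrillar collagen receptors Ddr2 (136 CPM) and Itga11 (27.1 CPM) and the uptake receptor Mrc2 (215 CPM). Itga11 was at 21.4, 3.57, 49.8 and 11.5 CPM in libraries 1 to 4, highest in library 3, and without that library its pooled level was 13.1 CPM. In endothelial-like cells Itga1, the integrin chain that binds type IV collagen, was the 1 receptor called, against 7.99% of all genes (420.5 CPM), and it was at 505 CPM in pericyte-like cells. A count of 1 of 9 is near that share. In smooth muscle-like cells 5 receptors were called, against 8.28% of all genes: Itga1, Itga10, the common integrin partner Itgb1 (1013 CPM), Ddr1 and Ddr2. These last 5 were named after their values were seen.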

How the data were processed

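Single cells of 4 mouse heart grafts (10x 3′ v3 libraries) were analysed. The authors deposited raw counts of UMIs per gene and cell as 1 merged table, which the file header ascribes to Cell Ranger 3.0.0. Per the labels, mm10 was the genome build, and CASAVA 1.8 and Seurat are also named. The symbols and barcodes came as separate lists. The collagen genes, pathway lists and markers were chosen with earlier results of these data known.

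Cells were kept if more than 200 genes were detected and mitochondrial UMIs were below 20%, 13 mitochondrial genes were removed, and the top 5% of cells per library by simulated doublet score (2231 cells) were left out. Each cell was brought to a total of 10000 and its logarithm taken. The 2000 most variable genes, without the collagen, assembly and receptor genes, gave 10 principal components, and a shared-neighbour graph with 30 neighbours was clustered by the Leiden method at resolution 0.8 (subclusters 0.5). A cluster was named from at least 3 markers detected in at least 10% of its cells at 2-fold the mean of the other clusters. It stayed unnamed where markers of another class led it, where no marker was among its 10 leading genes and its median UMIs were more than 3 times below those of its libraries, or, by a rule chosen after seeing the data, where it shared at least 3 leading genes with a better-marked cluster of another class. Groups under 50 cells were not described.

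Levels are CPM, bounded by exact Poisson intervals. Detection per cell was also computed after cells of at least 1000 UMIs were thinned to 1000 UMIs, with shallower cells left out. All intervals are 95% intervals, and like the depth of each library they bear on counting error only. Members at 10 CPM or more in a named class were named, others by count and range, and of the assembly and receptor genes those called in fibroblast-like or endothelial-like cells. With 1 pooled sample no test was run. Clustering, the rule for calls and the counting intervals were tried on simulated cells with known answers. The simulation held no separate libraries, doublets or free RNA and did not cover the naming of clusters. Levels of single genes in the 4 unnamed clusters are not reported here. Leaving out libraries for kinds of collagen and pathway genes was an alternative chosen after seeing the data. Alternatives covered doublets, resolution, principal components, cell filter, variable genes, joining, weighting and leaving out of libraries, free RNA, fold, added constant and low-gene filter. Positions are from GENCODE M21. Software was leidenalg 0.10.2, igraph 0.11.9, scikit-learn 1.9.0, scipy 1.17.1, pandas 2.3.3, numpy 2.4.6 and matplotlib 3.10.9 on Python 3.11.15.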

Additional observations from a re-analysis of the deposited data

How the results depend on the processing

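No paired analysis was possible because the labelled samples could not be tied to the libraries and no test was made. The collagen share of UMIs, 2.99% in fibroblast-like and 0.439% in endothelial-like cells, kept its order between the classes under every alternative computed on pooled libraries. With doublets kept the shares were 2.84% and 0.445%, at resolution 0.4 2.89% and 0.445%, at resolution 1.6 2.91% and 0.449%, and with 20 principal components 2.98% and 0.452%. With at least 500 genes per cell they were 2.96% and 0.512%, with collagen genes among the variable genes 2.96% and 0.437%, and with each library clustered on its own 2.86% and 0.425%. Libraries weighted equally gave 2.64% and 0.404%, and subtraction of free RNA 2.91% and 0.380%. With 1 library left out at a time they ranged from 1.99% to 3.65% and from 0.355% to 0.506%, both lowest without library 3. Single libraries gave 2.81%, 0.501%, 4.61% and 2.65% in fibroblast-like and 0.228%, 0.449%, 0.595% and 0.343% in endothelial-like cells. In 2 alternatives chosen after seeing the data, counting the unnamed cluster of library 2 with Cxcl5 and Prg4 among its leading genes as endothelial-like gave 0.435%, and leaving out fibroblast-like subclusters led by genes of other cells gave 2.998%.

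Of the counts of called members, that of fibroblast-like cells went from 23 of 25 to 12 of 19 tested in library 2 alone. The shares of all genes were 8.46% and 7.99%. The smooth muscle-like count went from 2 of 25 to 4 of 28 in library 1 alone. At 4-fold, pericyte-like cells had 0 in place of 4 members and smooth muscle-like cells 1 in place of 2. Shares of all genes for the smooth muscle-like count of library 1 and for the counts at 4-fold are not given here. The class with the highest level was kept for 25 of 25 members with doublets kept, at resolution 1.6, after subtraction of free RNA and with any 1 library left out, and for 24, 21, 20, 22 and 23 at resolution 0.4, with 20 principal components, at least 500 genes, collagen genes kept and libraries apart. In the last 4 of these a further class, Schwann-like cells (173 to 950 cells), was named and took the highest level of Col27a1 in each. It took that of Col18a1 with 20 principal components and with libraries apart. The highest class also changed for Col5a3 and Col16a1 with 20 principal components. With at least 500 genes it changed for Col4a5, Col11a1, Col12a1 and Col16a1, and with collagen genes kept for Col11a1 and Col16a1. At resolution 0.4 pericyte-like and smooth muscle-like cells were not named, and Col18a1 was highest in endothelial-like cells. Leaving 1 library out still pools the others, and within library 2 alone Col15a1 was higher in endothelial-like than in fibroblast-like cells. Depth limits the rare members: below 10 CPM a level in the smaller subclusters rests on a few UMIs.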

Other observations

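Rare chains in endothelial-like subclusters are given as values, and the genes were chosen after these were seen. Col28a1 was found in endothelial-like cells, while the background cells had no UMI of it in any library. In library 2 it was at 4.56 and 8.04 CPM in the 2 capillary subclusters, and the 76 arterial cells of that library had 0 UMIs, with a counting interval that reached 5.42 CPM and so did not separate them from the first. In library 1 it was at 8.68 CPM in the Ifit1-led and 11.03 CPM in the Aplnr-led subcluster, against 0.932 CPM in arterial cells, whose interval reached 3.37 CPM. No UMI of it was found in lymphatic or in endocardial or venous cells. Col25a1, a transmembrane collagen, was at 16.1 CPM in endocardial or venous cells (46 UMIs, in 12.4% of cells), against at most 3.84 CPM in any other endothelial-like subcluster of at least 50 cells. The part of doublets in these low levels was not tested.

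In GENCODE M21 the 44 genes lie on 15 chromosomes, and 8 pairs are direct neighbours in the family with less than 200000 bases between them. Of these pairs 3 are divergent, 3 on the same strand and 2 convergent. Col3a1 and Col5a2, both highest in fibroblast-like cells, are convergent with 24614 bases between them.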
